A study of Mus musculus with 12 samples.

Results

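The genes described here encode the proteasome, its assembly factors and its activators, as measured in mouse blastocysts. They were taken as every probe set paired with exactly 1 gene whose symbol starts with Psm, then a letter from a to g, then a digit. The rule found 49 genes on 103 probe sets, out of 18194 genes on 34958 probe sets that name a single gene. Psmc3ip and Psme3ip1 match the rule by their names but encode a recombination factor and a partner of the activator Psme3, so 47 genes on 100 probe sets are treated as proteasome genes. They comprise 15 genes of the core (8 alpha, 7 beta), 4 special catalytic beta genes, 9 of the base, 8 of the lid, 4 and 3 assembly factors of the core and of the base, and 4 activators or inhibitors. Psme2 shares its probe set with Psme2b and is no member.

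The study profiled blastocysts on 12 arrays, with 4 arrays in each of 3 groups. One group had been cultured in Ca-free medium, another had been treated by 20 pulses, and the control group is labelled as normal blastocysts. Its title concerns how Ca2+ oscillates in fertilised eggs, so each comparison asks which blastocyst transcripts differed when this signal had been changed earlier. The sources used here do not give strain, embryo age, the form of a pulse, the length of the Ca-free culture or how many embryos were pooled per array.

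The proteasome is the protease that degrades proteins tagged with ubiquitin. Its core is a barrel in which rings of alpha subunits form the gates and rings of beta subunits carry the proteolytic sites. A regulatory particle sits on the core: its base holds ATPases that unfold the substrate, and its lid removes the ubiquitin chain. In interferon-stimulated and immune cells, Psmb8, Psmb9 and Psmb10 replace the catalytic subunits Psmb5, Psmb6 and Psmb7 and form the immunoproteasome, which shapes peptides for antigen presentation. After fertilisation, the early embryo uses this pathway to clear proteins stored by the egg.

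The promoters of these genes are shown first because core, base and lid subunits, encoded on different chromosomes, must be made in matching amounts. RefSeq windows (GRCm38.p6) were matched for 39 of the 47 genes, and the 250 bases before the transcription start were searched on both strands for 5 motifs. The antioxidant response element that Nrf1 and Nrf2 bind (TGANNNNGC) was in 39.0% of the 41 windows, against 35.2% of all 32851 windows of the same length. The CCAAT box (CCAAT), bound by NF-Y, was in 34.1% against 33.8% of all windows. The GC box (GGGCGG), bound by Sp1, was in 51.2% against 32.7%. The ETS site (CCGGAAG) was in 31.7% against 6.91%, namely in windows of 12 genes: Psma6, Psmc1, Psmc2, Psmc6, Psmd2, Psmd4, Psmd6, Psmd11, Psmd12, Psme3, Psme4 and Psmg1. The interferon response element (GAAANNGAA) was in 7.32% against 7.13%, and no window of Psmb8, Psmb9 or Psmb10 held these letters. A match describes letters and no binding was measured; GC boxes can overlap each other.

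Printed below are the last 120 bases before the start of 4 genes whose transcripts are described further on, 1 each from the core and the lid and 2 from the base, read 5′ to 3′ on the gene's own strand, with capitals marking the motif matches. Psma7 lies at chr2:180042465-180042584 on the minus strand and holds 4 GC boxes on the opposite strand, 2 of which overlap. Psmd6 lies at chr14:14120946-14121065 on the minus strand with a GC box and an ETS site. Psmd4 lies at chr3:95042615-95042734 on the minus strand with a CCAAT box and an interferon response element, both reading on the opposite strand. Psmc1 lies at chr12:100110082-100110201 on the plus strand with an ETS site on the opposite strand. Matches further upstream are counted above and not printed.
Psma7: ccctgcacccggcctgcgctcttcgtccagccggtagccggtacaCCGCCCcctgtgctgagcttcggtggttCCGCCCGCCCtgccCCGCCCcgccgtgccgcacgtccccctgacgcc
Psmd6: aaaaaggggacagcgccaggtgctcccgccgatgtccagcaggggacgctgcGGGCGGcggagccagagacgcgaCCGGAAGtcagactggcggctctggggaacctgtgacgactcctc
Psmd4: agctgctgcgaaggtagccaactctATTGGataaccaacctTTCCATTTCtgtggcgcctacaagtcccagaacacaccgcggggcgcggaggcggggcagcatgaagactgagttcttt
Psmc1: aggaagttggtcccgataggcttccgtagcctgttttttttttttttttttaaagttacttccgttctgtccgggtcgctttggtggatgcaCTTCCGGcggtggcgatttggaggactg

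Values below are array signals, a linear intensity scaled so that the 2% trimmed mean of every array is 500. Changes and folds are on the log2(signal + 32) scale, which understates the change of dim probe sets, and a gene is represented by its brightest tested probe set. A gene or probe set is said to have risen, fallen or been called when limma gave a Benjamini-Hochberg adjusted p under 0.05 over all 27808 tested probe sets. The test took probe sets whose signal averaged 100 or more, which kept 46 of the 49 genes and 89 of the 103 probe sets. The genes not tested were Psmb8, Psmb9 and Psmb11. Signals of different probe sets do not rank the transcripts.

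Some arrays stood apart. The Actb probe sets at the 3' and 5' ends stood in a ratio of 1.69 to 1.88 in Ca-free medium, 1.49 to 1.69 after 20 pulses, and 1.59, 1.67, 2.69 and 2.64 in controls 1 to 4. For Gapdh this ratio was 2.89 to 5.05 in Ca-free medium, 5.70 to 7.58 after 20 pulses and 5.76 to 8.90 in control. The 18S rRNA 5' probe set read 4003 to 5780 in Ca-free medium and 2653 to 3688 after 20 pulses, against 2409, 2559, 878.4 and 883.2 in controls 1 to 4. All 10 blastocyst markers had a mean signal of at least 100, and their summed signal was 50930 to 53270 in Ca-free medium, 51230 to 52160 after 20 pulses and 51580 to 53800 in control. Summed markers of oviduct and uterus (7 of 7 at or above 100) read 721 to 1042 in Ca-free medium, 1221 to 1461 after 20 pulses and 1441 to 1662 in control. Immune markers (3 of 7) summed to 785 to 919, 1132 to 1494 and 1182 to 1265 in Ca-free medium, 20 pulses and control, and cumulus or granulosa markers (1 of 6, Foxl2) to 343 to 413, 450.0 to 618 and 539 to 715. The markers of oviduct and uterus were dim, and all 17560 probe sets averaging 100 to 500 had a median log2 change of -0.34 in Ca-free medium against control. The median intensity as deposited was 38.28 to 39.19 in Ca-free medium, 47.35 to 53.65 after 20 pulses and 49.37 to 53.04 in control. The part of these array differences in the marker sums and in the results below was not tested. In pooled RNA fewer cells of a type and less RNA per cell cannot be told apart.

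In blastocysts from Ca-free medium, 18 of 44 tested proteasome genes rose against control and 0 fell under trimmed-mean scaling, but under scaling to the hybridization controls 3 were called higher and 9 lower. The 18 increases were small, between 1.11-fold and 1.33-fold. Of all tested genes, 12.3% were called higher and 28.8% lower under trimmed-mean scaling. Under the hybridization controls 344 of all 13599 tested genes were called higher and 6607 lower. The median log2 change of the proteasome genes was 0.13, against -0.13 for all tested genes, and 35 of the 44 lay above 0. The array medians of the 44 genes, as log2 deviations from the mean of all arrays, were 0.11, 0.15, 0.01 and 0.19 in Ca-free medium, -0.07, -0.09, -0.11 and -0.05 after 20 pulses, and -0.07, -0.04, 0.02 and -0.02 in control. Ca-free array 3 thus overlapped the control arrays, and the other Ca-free arrays lay above all of them. The beta subunits, the base and the lid held 13 of the 18 calls, as the plot of changes by gene shows.

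**Figure D1:**
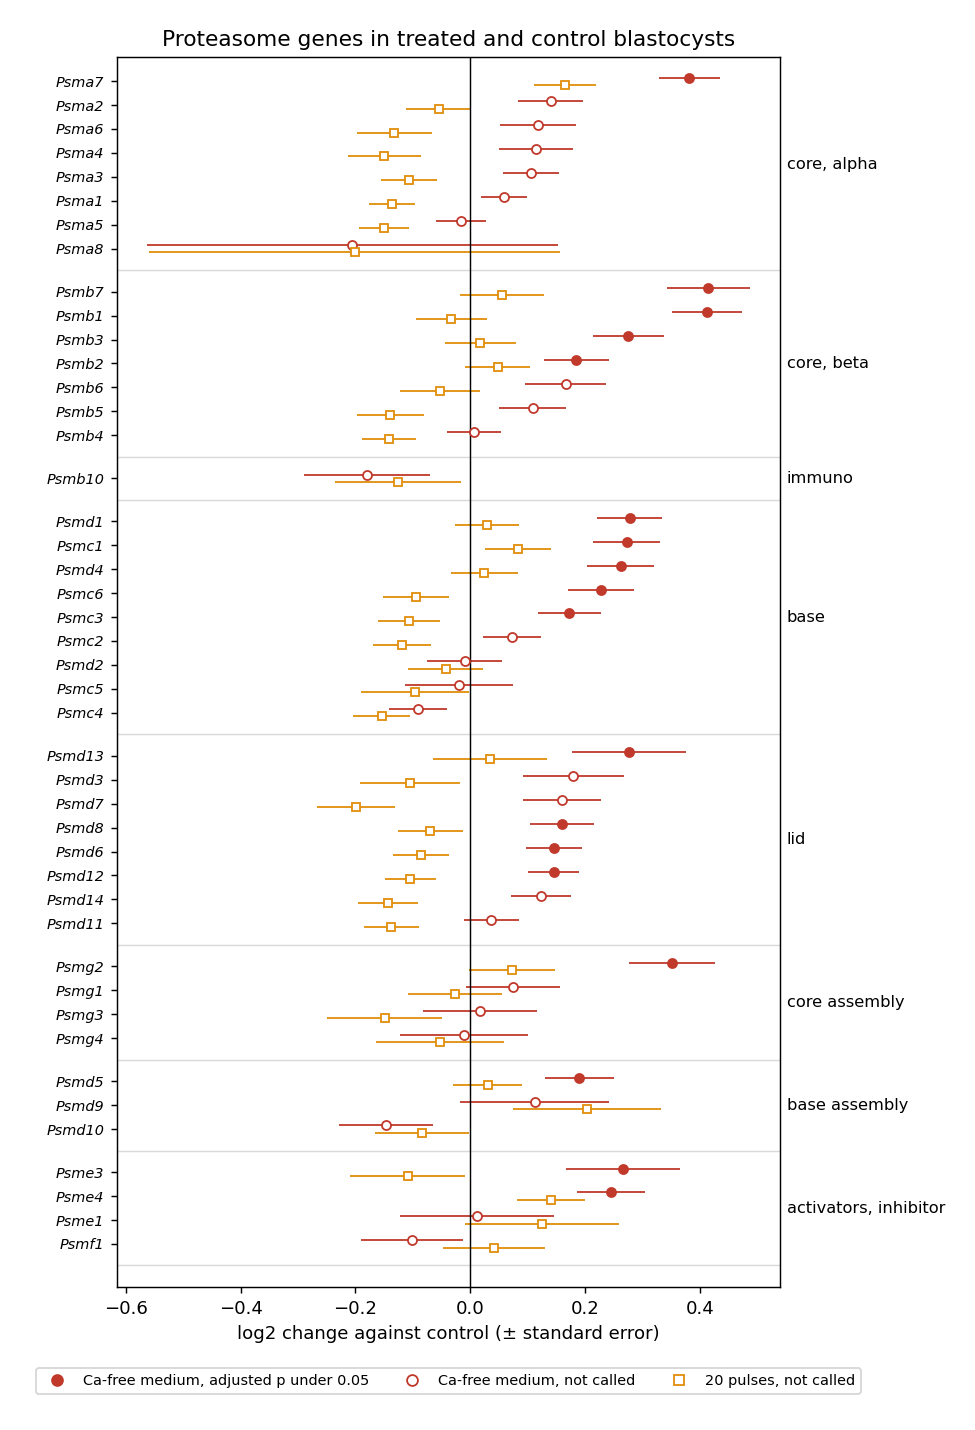
Log2 change against control (horizontal axis, mean ± standard error from limma, 4 arrays per group) of the 44 tested proteasome genes, grouped by role, for Ca-free medium (circles, filled where called) and 20 pulses (squares). The 18 filled circles lie between 0.15 and 0.41 under trimmed-mean scaling, while 0 squares are filled; scaling to the hybridization controls turns 6 of the 18 below 0.

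Among the 8 alpha genes, which form the gated outer rings of the core, only Psma7 was called on its brightest probe set. The median change was 0.11. Psma7 read 6635, 7102, 6208 and 6930 in Ca-free medium, 5469, 5640, 6105 and 5871 after 20 pulses, and 5162, 5115, 5273 and 5018 in control. Every Ca-free array lay above every other array, and every array of 20 pulses lay above every control array. The increase in Ca-free medium was 1.30-fold (log2 change 0.38 ± 0.05 SE, adjusted p = 3.48e-04 by limma), and the other probe set of the gene rose by 1.42-fold. The change after 20 pulses was 0.16 (adjusted p = 0.141) and was not called. Psma1 to Psma6 had log2 changes between -0.02 and 0.14 in Ca-free medium and were not called on their brightest probe sets. The other tested probe set of Psma5 rose (0.25, adjusted p = 0.00180 by limma). Of the other probe sets of Psma6, 1 rose (0.15) and 1 fell (-0.71). Psma8, the alpha subunit of male germ cells, read 89.8 ± 15.4 in Ca-free medium, 107 ± 75.4 after 20 pulses and 112 ± 44.0 in control (SD, n = 4 each), at the lower end of the tested signals.

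Of the 7 constitutive beta genes 4 rose, with a median change of 0.18. Psmb7, the subunit with trypsin-like activity, read 6384, 7671, 6338 and 7070 in Ca-free medium, 5528, 5223, 4992 and 5592 after 20 pulses, and 4607, 5037, 5489 and 5419 in control. The Ca-free arrays lay above all others, and the remaining groups overlapped. The increase was 1.33-fold (log2 change 0.41 ± 0.07 SE, adjusted p = 9.94e-04 by limma). Psmb1, a structural beta subunit, read 7511, 7146, 7262 and 7453 in Ca-free medium, 5025, 5223, 5650 and 5653 after 20 pulses, and 5038, 5239, 5974 and 5833 in control. Its Ca-free arrays were again above all others (log2 change 0.41 ± 0.06 SE, adjusted p = 4.65e-04), although controls 3 and 4 were higher than controls 1 and 2. The structural subunits Psmb3 (log2 change 0.28, adjusted p = 0.00383) and Psmb2 (0.18, adjusted p = 0.0188) rose as well, and Psmb4 had a change of 0.01.

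The other catalytic subunits were not called. Psmb5, the chymotrypsin-like subunit, read 8386, 8735, 7549 and 9290 in Ca-free medium, 7080, 7164, 6909 and 7341 after 20 pulses, and 7410, 7962, 8096 and 7948 in control. Ca-free array 3 lay among the control arrays, so these groups overlapped (log2 change 0.11, adjusted p = 0.147). The arrays of 20 pulses lay below every other array (log2 change against control -0.14, adjusted p = 0.254, not called). Psmb6, the caspase-like subunit, averaged 11110 ± 1160 in Ca-free medium, 9498 ± 299 after 20 pulses and 9869 ± 692 in control (SD, n = 4 each), and its change of 0.17 was not called (adjusted p = 0.0699 by limma).

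**Figure D2:**
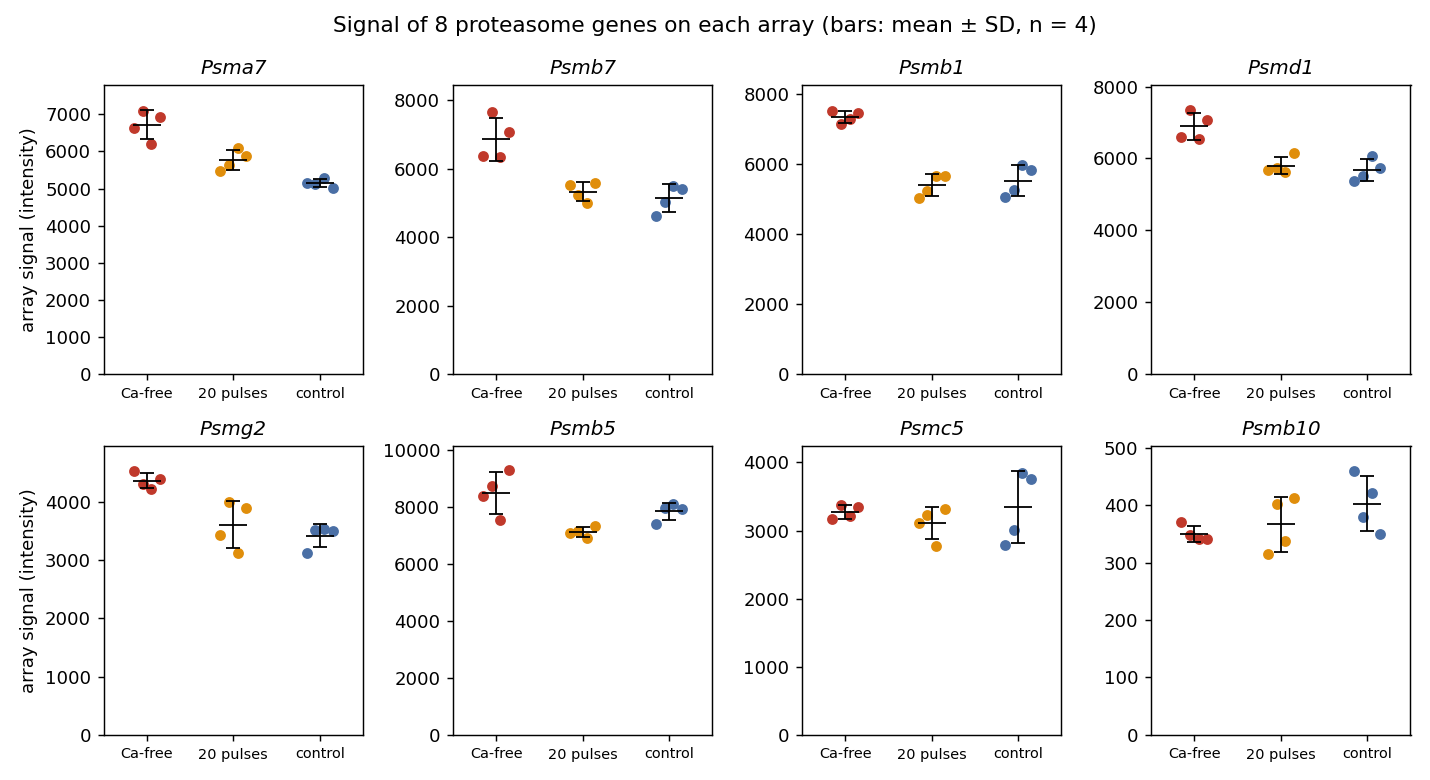
Signal of 8 proteasome genes on each array (vertical axes, linear intensity from 0) in Ca-free medium, after 20 pulses and in control, with the mean and SD of 4 arrays. For Psma7, Psmb7, Psmb1, Psmd1 and Psmg2 the Ca-free arrays lie above every control array, whereas Ca-free and control arrays overlap for Psmb5, Psmc5 and Psmb10; the arrays of 20 pulses are below all others for Psmb5.

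The immunoproteasome genes were dim. The brighter probe set of Psmb8 read 4.43 to 19.6 in Ca-free medium, 18.3 to 35.2 after 20 pulses and 17.5 to 30.6 in control, all far under the tested minimum of 100. Its other probe set averaged 18.2 ± 2.52 in Ca-free medium, 16.6 ± 4.14 after 20 pulses and 19.4 ± 2.18 in control (SD, n = 4 each), with overlapping groups. Psmb9 read 120.6, 34.1, 35.3 and 102.1 in Ca-free medium, 40.1, 46.6, 39.9 and 41.9 after 20 pulses, and 19.9, 21.3, 18.7 and 49.6 in control. Ca-free arrays 1 and 4 were high and arrays 2 and 3 lay within the range of the other groups. Psmb11, the subunit of thymic cortical cells, averaged 35.7 ± 23.3, 25.7 ± 4.85 and 35.6 ± 21.4 in Ca-free medium, 20 pulses and control (SD, n = 4 each). Psmb10 was the tested member of this group, with 370.2, 348.8, 340.6 and 341.7 in Ca-free medium, 315, 401.8, 337.8 and 412.9 after 20 pulses, and 459.3, 380.1, 421.2 and 350.4 in control. The groups overlapped, and its log2 change of -0.18 in Ca-free medium was not called (adjusted p = 0.199 by limma).

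Psmb10 was also set against Psmb7, whose place it takes, as a log2 ratio within each array. The ratio was -4.00, -4.34, -4.10 and -4.25 in Ca-free medium, -4.00, -3.60, -3.76 and -3.66 after 20 pulses, and -3.24, -3.62, -3.61 and -3.83 in control. Every Ca-free array lay below every control array, with a difference of -0.59, while 20 pulses and control overlapped, with a difference of -0.18. The exact two-sided permutation p in Ca-free medium was 0.0286, the smallest that 4 against 4 arrays allow. Adjusted over the 6 ratio tests of the design it was 0.0857, and after 20 pulses 0.371, so neither passed the threshold. The other 4 tests paired Psmb8 with Psmb5 and Psmb9 with Psmb6. They are not read here because the signals of Psmb8 and Psmb9 were under the minimum. Psmb10 was dim (mean signal 373.3) beside Psmb7 (5779). All tested genes with a signal of 329.9 to 454.6 had a median log2 change of -0.26 in Ca-free medium against control. For those at 3484 and above it was 0.12. Under quantile normalization, Psmb10 changed by 0.03 and Psmb7 by 0.28. The part of signal level in the lower ratio was not tested.

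In the base, 5 of 9 genes rose in Ca-free medium, with a median change of 0.17. Psmd1, a scaffold subunit, read 6586, 7350, 6554 and 7071 in Ca-free medium, 5688, 5721, 5613 and 6138 after 20 pulses, and 5379, 5511, 6079 and 5739 in control. Its Ca-free arrays stood above all others (1.21-fold, log2 change 0.28 ± 0.06 SE, adjusted p = 0.00210 by limma). Psmc1, an ATPase, read 5260, 5093, 4907 and 5508 in Ca-free medium, 4125, 4724, 4612 and 4758 after 20 pulses, and 4200.0, 4386, 4211 and 4364 in control. Here too the Ca-free arrays lay above all others (log2 change 0.27, adjusted p = 0.00272). Psmd4, which binds ubiquitin chains, rose with a change of 0.26 (adjusted p = 0.00365), and the ATPases Psmc6 (0.23, adjusted p = 0.00681) and Psmc3 (0.17, adjusted p = 0.0209) rose too. The ATPases Psmc2, Psmc5 and Psmc4 and the scaffold Psmd2 were not called, with changes between -0.09 and 0.07. Psmc5 read 3163 to 3371 in Ca-free medium, against 2782, 3011, 3838 and 3757 in controls 1 to 4, so the Ca-free arrays lay between the 2 pairs of controls.

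In the lid, 4 of 8 genes rose, all 8 changes of the brightest probe sets were above 0, and the median was 0.15. Psmd13 had a change of 0.28 (adjusted p = 0.0376 by limma), Psmd8 of 0.16 (adjusted p = 0.0344), Psmd6 of 0.15 (adjusted p = 0.0292) and Psmd12 of 0.15 (adjusted p = 0.0188). These are structural subunits of the lid. The 3 other tested probe sets of Psmd13 had changes of -0.15, -0.37 and -0.36 and were not called. Psmd6 read 9234, 10210, 9302 and 9178 in Ca-free medium, 7961, 7763, 8522 and 8024 after 20 pulses, and 8169, 8828, 8778 and 8477 in control. The Ca-free arrays were above all others, and its second probe set had a larger change of 0.39. Psmd14, the deubiquitinase of the lid, had a change of 0.12 (adjusted p = 0.0716) and was not called, nor were Psmd3 (0.18), Psmd7 (0.16) and Psmd11 (0.04).

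Assembly factors moved unevenly. Psmg2, a chaperone that pairs with Psmg1 to build the alpha ring, read 4529, 4312, 4230 and 4397 in Ca-free medium, 3429, 3992, 3123 and 3897 after 20 pulses, and 3121, 3511, 3542 and 3498 in control. The Ca-free arrays lay above all others (log2 change 0.35, adjusted p = 0.00285 by limma). Its partner Psmg1 had a change of 0.07, and the chaperone pair Psmg3 and Psmg4 had changes of 0.02 and -0.01, none of them called. Of the chaperones that assemble the ATPase ring of the base, Psmd5 rose (0.19, adjusted p = 0.0219), whereas Psmd9 (0.11) and Psmd10 (-0.15) were not called.

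Of the 4 activators and inhibitors 2 rose. Psme3, which caps the core in the nucleus, read 1332, 1475, 1471 and 1641 in Ca-free medium, 971.1, 1248, 1023 and 1317 after 20 pulses, and 1250.0, 1220.0, 1288 and 1136 in control. The lowest Ca-free array lay just above the highest control array (log2 change 0.27, adjusted p = 0.0450 by limma). Psme4, the large single-chain activator PA200, averaged 3223 ± 161 in Ca-free medium, 2992 ± 40.2 after 20 pulses and 2713 ± 149 in control (SD, n = 4 each), a change of 0.25 in Ca-free medium (adjusted p = 0.00547). The interferon-inducible activator Psme1 (0.01) and the inhibitor Psmf1 (-0.10) were not called. Outside the complex, Psmc3ip (0.15) and Psme3ip1 (-0.14) were not called either.

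Most of the 18 calls depended on how the arrays were scaled. The median change of all tested genes in Ca-free medium was -0.13 after trimmed-mean scaling, -0.03 after quantile normalization, 0.25 after median scaling and -0.32 after scaling to 9 hybridization control probe sets. The proteasome median exceeded it by 0.27, 0.08, 0.30 and 0.25 in that order. Correspondingly, 5, 42 and 3 of the 44 genes were called higher under the other 3 scalings, and 0, 0 and 9 lower. Of all 13599 tested genes, 1223, 5739 and 344 were called higher under these scalings, and 1564, 710 and 6607 lower. Psma7, Psmb1 and Psmb7 were called higher under all 4, and Psmb3 and Psmd1 under all except the hybridization controls. The 9 genes called lower under the hybridization controls were Psma1, Psma5, Psmb4, Psmb10, Psmc4, Psmd2, Psmd10, Psmd11 and Psmf1, and 8 of these were called higher under median scaling. The hybridization controls, RNAs added in fixed amounts, read 0.21 higher on the log2 scale in Ca-free medium than in control by the 9 probe sets used and 0.37 by an older set.

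**Figure D3:**
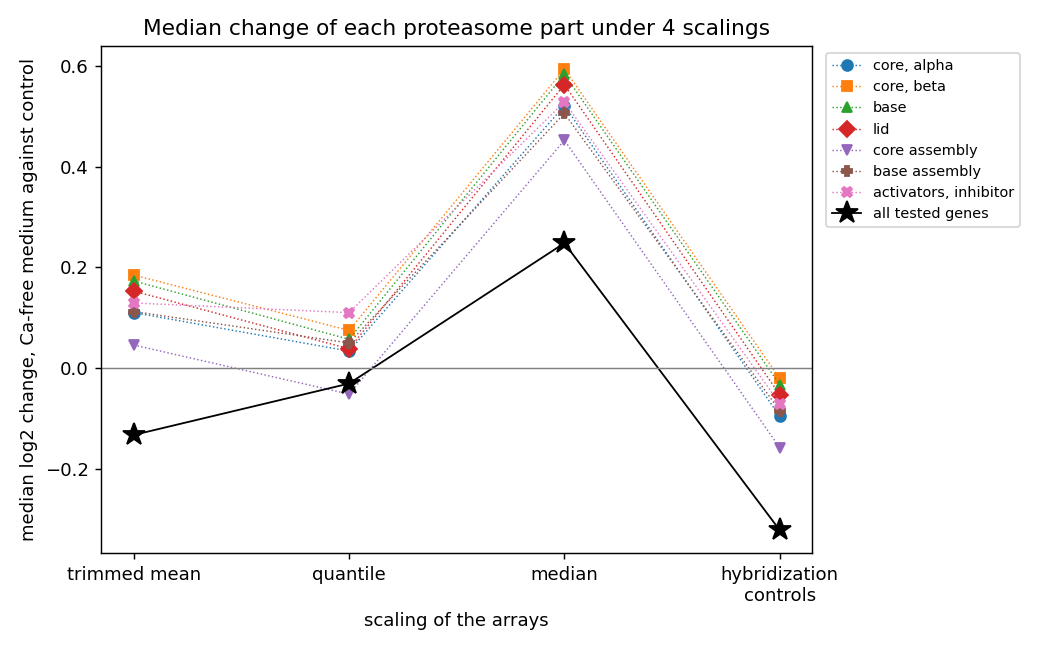
Median log2 change in Ca-free medium against control (vertical axis) of each group of proteasome genes and of all tested genes (stars) under 4 scalings of the arrays (horizontal axis). All tested genes have medians of -0.13, -0.03, 0.25 and -0.32, and all 7 proteasome groups lie below 0 under the hybridization controls; core assembly factors lie below the stars under quantile normalization.

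Single arrays also decided some calls. Of the 18 genes, 10 stayed called in each of the 12 fits that left out 1 array: Psma7, Psmb1, Psmb3, Psmb7, Psmc1, Psmc6, Psmd1, Psmd4, Psme4 and Psmg2. Without control 1, 11 of the 18 stayed called, without Ca-free array 2 12, without Ca-free array 1 or 4 14, and without control 2 15. Leaving out control 3 or 4 kept 16, and leaving out Ca-free array 3 kept 17. The 8 others had log2 changes of 0.16 to 0.21 for Psmb2, 0.14 to 0.21 for Psmc3, 0.17 to 0.22 for Psmd5, 0.11 to 0.16 for Psmd6, 0.14 to 0.20 for Psmd8, 0.12 to 0.16 for Psmd12, 0.21 to 0.35 for Psmd13 and 0.22 to 0.31 for Psme3 over these fits. Against controls 1 and 2 alone 13 of the 18 stayed called, and against controls 3 and 4 alone 8.

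**Figure D4:**
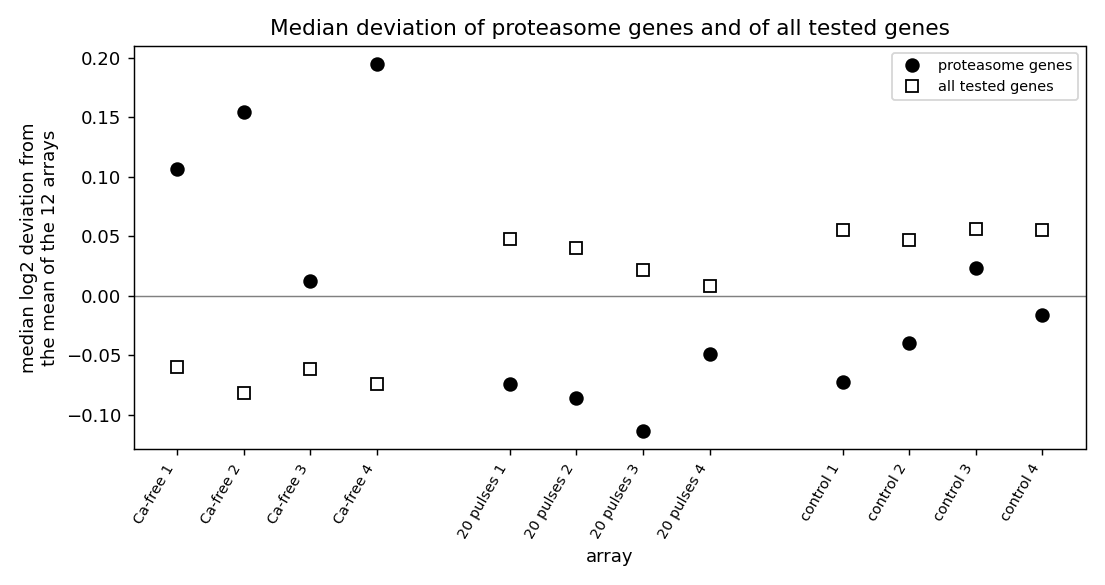
Median log2 deviation from the mean of all 12 arrays (vertical axis) on each array, for the 44 proteasome genes (filled circles) and all tested genes (open squares), after trimmed-mean scaling. Ca-free arrays 1, 2 and 4 lie at 0.11, 0.15 and 0.19 for proteasome genes while all genes lie below 0; Ca-free array 3 lies at 0.01, within the range of the controls.

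Direction followed the signal of the probe set. Of the 86 tested proteasome probe sets, 27 were called higher and 6 lower in Ca-free medium, where 10.6% of all probe sets were called higher and 29.7% lower. The 22 with a mean signal between 100 and 500 had a median change of -0.26, with 0 higher and 3 lower, and all 17560 probe sets in that range had a median of -0.34. Between 2000 and 8000 the 31 proteasome probe sets had a median of 0.19 and 19 were higher, beside a median of 0.14 and 38.8% called higher among all 2962. At 8000 and above, 5 of 18 were higher with a median of 0.12, beside 0.08 and 20.3% of all 715. Proteasome genes were concentrated at high signal: 30 of the 44 were among the 10% of genes with the highest signal. Within these 10% the median change was 0.15 for proteasome genes, 14 of 30 of which were called higher, and 0.12 for all genes, 36.8% of which were called higher.

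**Figure D5:**
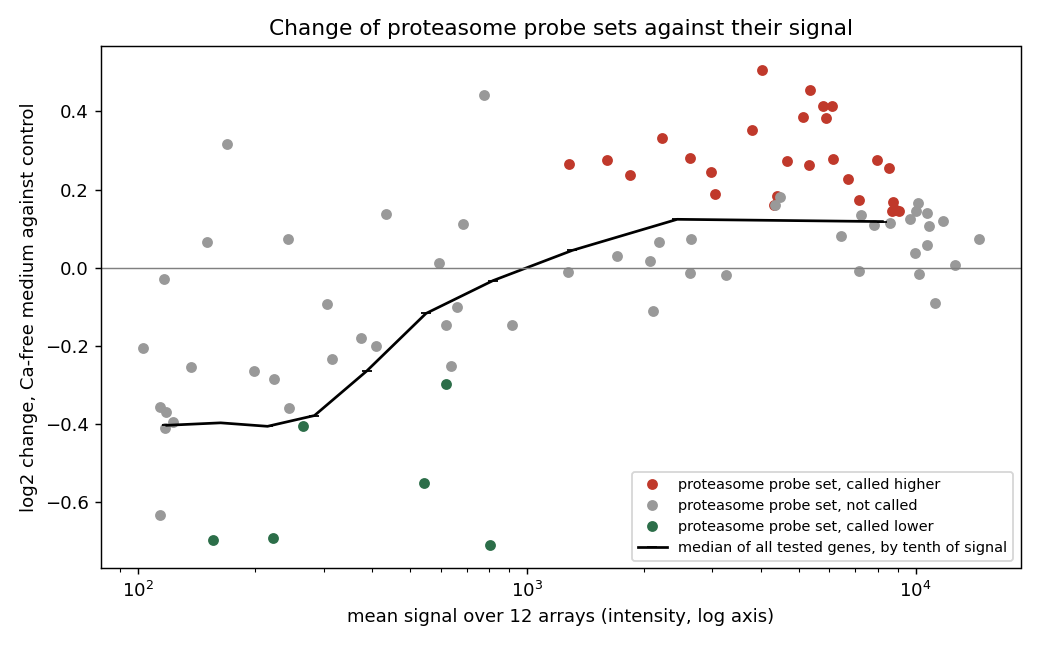
Log2 change in Ca-free medium against control (vertical axis, trimmed-mean scaling) of each tested proteasome probe set against its mean signal over 12 arrays (horizontal axis, log scale), with the median of all tested genes in 10 bins of equal size by signal as a line. All probe sets called higher have a greater signal than any called lower, and the line passes from -0.40 at low signal to 0.12 at high signal; the position of 0 moves with the scaling.

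Probe sets of the same gene could disagree in Ca-free medium against control. In 5 genes, Psma6, Psmb1, Psmd4, Psmd11 and Psmg2, a probe set was called higher and another lower under trimmed-mean scaling, whereas under median scaling 0 proteasome probe sets were called lower. The lower ones, by probe set number, were 1435317 of Psma6 (log2 change -0.71, adjusted p = 0.00199 by limma), 1451725 of Psmd4 (-0.55, adjusted p = 0.00285) and 1444264 of Psmg2 (-0.69, adjusted p = 0.00336). The others were 1456104 of Psmd11 (-0.41, adjusted p = 0.0223), 1420052 of Psmb1 (-0.30, adjusted p = 0.0334) and 1454368 of Psmd7 (-0.70, adjusted p = 0.00869), whose gene had no probe set called higher. For Psmd4 the lower probe set read 460.7, 503.6, 405.4 and 371.8 in Ca-free medium, 503.6, 633.1, 489.2 and 552.4 after 20 pulses, and 543.8, 714, 696 and 655.7 in control. All its Ca-free arrays lay below all control arrays, opposite to the brightest probe set of Psmd4, and under median scaling its change was -0.16 and not called. Under the same scaling the lower probe sets of Psmb1 and Psmd11 were at 0.09 and -0.04, and those of Psma6, Psmg2 and Psmd7 at -0.31, -0.34 and -0.37. Under quantile normalization the probe sets of Psma6 and Psmd4 stayed called lower. Which transcript forms these probe sets match was not tested. Among the 23 genes with more than 1 tested probe set, all were called higher for Psma7 and Psmd6.

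After 20 pulses, no proteasome gene was called against control by limma under trimmed-mean scaling, and log2 changes lay between -0.20 and 0.20. Of all tested genes 0.75% were called higher and 0.331% lower, and of all probe sets 1.10% and 0.374%. The median was -0.08 for the 44 proteasome genes and -0.04 for all tested genes, and 30 of the 44 lay below 0. Under scaling to the hybridization controls the proteasome median was 0.07 and 42 lay above 0. There the median of all tested genes was 0.12, and 10302 of 13599 lay above 0. The proteasome median differed from that of all tested genes by -0.05, 0.02, -0.05 and -0.04 under trimmed-mean, quantile, median and hybridization control scaling. At an unadjusted limma p under 0.05 and trimmed-mean scaling, 2 of the 44 genes were higher and 12 lower. Of all tested genes 6.82% were higher and 8.49% lower by this measure. The smallest adjusted p by limma was 0.102. Among the 10% of genes with the highest signal, the median was -0.10 for proteasome genes and -0.05 for all genes. At a signal of 8000 and above it was -0.12 for proteasome probe sets and also -0.12 for all probe sets. The alpha genes had a median of -0.13, the lid -0.10, the base -0.09 and the beta genes -0.03. Psma7 was called higher under quantile normalization, and Psma7 and Psme4 under scaling to the hybridization controls. Of all 13599 tested genes, 124 and 952 were called higher under these scalings.

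Ca-free medium was also set directly against 20 pulses, which uses arrays of both comparisons above. Under trimmed-mean scaling, 28 of the 44 genes were called higher in Ca-free medium and 0 lower. Of all tested genes, 11.2% were higher and 21.0% lower (9.22% and 23.4% of probe sets). Of the 89 tested member probe sets, 39 were called higher and 8 lower. Among the 10% of genes with the highest signal, 27 of 30 proteasome genes were called higher, beside 53.8% of all genes. The median changes there were 0.23 for proteasome genes and 0.18 for all genes. Under scaling to the hybridization controls the direction turned, with 0 proteasome genes higher and 21 lower. Of all 13599 tested genes, 38 were then higher and 9569 lower. The calls covered 7 of 8 alpha, 6 of 7 beta, 6 of 9 base and 7 of 8 lid genes, 1 of 4 core assembly factors, 0 of 3 base assembly factors and 1 of 4 activators and inhibitors. The largest changes were in Psmb1 (0.45, adjusted p = 7.05e-04 by limma), Psme3 (0.38, adjusted p = 0.0121), Psmd7 (0.36, adjusted p = 0.00247) and Psmb7 (0.36, adjusted p = 0.00347). On its brightest probe set Psmd7 read 4419, 4962, 4756 and 5367 in Ca-free medium and 3632, 4009, 3600.0 and 3910 after 20 pulses, without overlap. Another probe set was called lower in Psmb1 (1420052, -0.29, adjusted p = 0.0446 by limma), Psme3 (1438509, -0.57, adjusted p = 0.0173) and Psmd7 (1454368, -0.58, adjusted p = 0.0259). Under median scaling 0 member probe sets were called lower in this comparison. Under quantile normalization 3 were called higher, namely Psmb1, Psmd7 and Psme3, beside 724 of all 13599 tested genes.

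Genes that work with the proteasome were looked at in lists, of which members outside the Psm names are given for Ca-free medium against control under trimmed-mean scaling. Among 15 partners measured, 5 rose and 0 fell, where 12.3% of all tested genes rose and 28.8% fell. Among the 10% of genes with the highest signal, 36.8% rose. Under scaling to the hybridization controls 1 partner was called higher and 7 lower, beside 344 and 6607 of all 13599 tested genes. The 5 that rose were Ecpas, a scaffold protein of the proteasome (log2 change 0.84, adjusted p = 0.00144 by limma), Uchl5, a deubiquitinase bound to it (0.37, adjusted p = 7.24e-04), the shuttle factor Ubqln1 (0.23), the core maturation factor Pomp (0.19) and Akirin2, which brings the proteasome into the nucleus (0.19). Ecpas read 565 to 1060.0 in Ca-free medium and 399 to 433 in control, without overlap, and was called under all 4 scalings. Uba6, an activating enzyme of ubiquitin, rose by 0.50 (adjusted p = 0.0162) as the 1 measured gene of the 6 listed for ubiquitin supply. Of the 5 partners and Uba6, Ecpas alone stayed called under scaling to the hybridization controls, where the changes of Pomp and Akirin2 were -0.02 each. The 7 partners called lower there were Fbxo7, Pithd1, Rad23b, Txnl1, Ubqln2, Ubqln4 and Zfand5, with changes between -0.36 and -0.15.

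Of 10 genes of the unfoldase Vcp and its cofactors, 6 rose and 1 fell, while under the hybridization controls 1 was called higher and 2 lower. Of all tested genes, 12.3% rose and 28.8% fell under trimmed-mean scaling, and 36.8% rose among the 10% with the highest signal. Under the hybridization controls 344 of all 13599 tested genes were called higher and 6607 lower. Ubxn4, which holds Vcp at the endoplasmic reticulum, read 3557 to 4428 in Ca-free medium, 3342 to 3849 after 20 pulses and 2002 to 2476 in control. Both treated groups lay above every control array, with a log2 change of 0.82 in Ca-free medium (adjusted p = 9.67e-05 by limma) and 0.65 after 20 pulses (adjusted p = 0.00461), called under all 4 scalings in each. Vcp itself rose by 0.30, Derl2 by 0.40, Faf1 by 0.30, Nsfl1c by 0.26 and Ubxn1 by 0.19, while Faf2 fell by 0.48. Under scaling to the hybridization controls Ubxn4 and Faf2 stayed called and the change of Ubxn1 was -0.02, and under median scaling Faf2 was not called (-0.09). Among 10 genes of the Nrf1 and Nrf2 regulators, Mafg (0.31), Nfe2l2 (0.24) and Bach1 (0.20) rose, and Keap1 (-0.32) and Sel1l (-0.28) fell, but under median scaling Keap1 (0.09) and Sel1l (0.11) were not called, and under the hybridization controls Bach1 was at -0.01. Nfe2l1, which encodes Nrf1, the factor that raises proteasome genes when the proteasome is inhibited, had a change of -0.19 and was not called (adjusted p = 0.143), but its change was -0.39 and called lower under the hybridization controls and 0.21, not called, under median scaling. Counted over this list, 0 genes were called higher and 5 lower under the hybridization controls, and 4 higher and 0 lower under median scaling. Of all 13599 tested genes, 6607 were called lower under the hybridization controls and 5739 higher under median scaling. The median changes of all tested genes under these scalings were -0.32 and 0.25. Of 6 tested genes of antigen processing, Tap1 (-0.60), Nlrc5 (-0.64) and H2-K1 (-0.40) fell and 0 rose, where 28.8% of all tested genes fell. Among all probe sets with a mean signal between 100 and 500, the range of Tap1 and Nlrc5, 38.9% were called lower. Under median scaling Tap1, Nlrc5 and H2-K1 were not called, with changes of -0.22, -0.30 and 0.00, and B2m was called higher (0.46). Under the hybridization controls 4 of the 6 were called lower, beside 6607 of all 13599 tested genes.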

How the data were processed

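The deposited table holds linear intensity values of 12 arrays of mouse blastocysts for 45037 probe sets and 64 array controls, made by the authors with MAS5 per the submitters' processing notes (version not given in the sources used here); every array had the same 2% trimmed mean as deposited. Per the labels, RNA came from PicoPure purification and was labelled with an Affymetrix small-sample assay. Detection calls and scan dates were not analysed here. Precision is limited by how few arrays there are. Nothing in the labels tells if the replicates came from separately collected embryos, so the p-values cover the spread among these samples alone, which may be technical.

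Here signals were multiplied to bring every 2% trimmed mean to 500, 32 was added, and log2 was taken. Probe sets with a mean of at least 100 over all arrays were tested, which left 27808 probe sets of 13599 genes. The comparisons used limma 3.58.1 under R 4.3.3 (lmFit, eBayes with an intensity trend, 12 arrays in 1 model, no block) and Benjamini-Hochberg adjustment over all tested probe sets. The procedure was tested on simulated data. Subunit ratios were tested by exact permutation, two-sided, in scipy 1.17.1. The platform's table pairs 34958 probe sets with 1 gene, 932 with several and 9211 with none. Its symbols were used and checked against current symbols by gene identifier, where all 103 member probe sets matched.

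Genes named with values are those called in a treatment against control, a set list of catalytic subunits, activators and assembly factors whatever their test, probe sets called against their gene's brightest one, and called genes of the pathway lists; arrays shown for other members were chosen after their values were seen. The members, lists, array pairs and alternatives were chosen with earlier results of these data known. The motifs, and the alternative without cross-hybridizing probe set types, were chosen after seeing the data. Alternatives changed the scaling, added value, filter, trend, weights, arrays and probe set rule.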

Additional observations from a re-analysis of the deposited data

Results flagged for a closer look

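Among 132 groups of 4 arrays (44 proteasome genes in 3 groups), 4 held an array whose gap to the nearest other array exceeded Dixon's critical share of the group's range; chance flags about 1 in 20 groups. Psmd6 read 10210 on Ca-free array 2, with the other Ca-free arrays at 9178 to 9302. Psmc6 read 5506 on array 1 of 20 pulses, with the others at 6171 to 6302. Psmc3 read 7341 on control 3, with the others at 6861 to 6935, and Psmg2 read 3121 on control 1, with the others at 3498 to 3542. Without Ca-free array 2, Psmd6 was no longer called in Ca-free medium, and Psmg2 stayed called without control 1.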

How the results depend on the processing

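For Ca-free medium against control, the 18 genes called higher by limma became 5 under quantile normalization, 42 under median scaling, 3 under hybridization control scaling, 10 without the intensity trend, 8 with controls 3 and 4 only, 9 with Ca-free arrays 2 and 3 only and 11 with probe sets averaged per gene. Leaving out 1 array gave 11 to 23, with 11 without control 1. The 0 genes called lower became 9 under hybridization control scaling and 1 with the mean of probe sets. Of all 13599 tested genes, 1223, 5739 and 344 were called higher under quantile, median and hybridization control scaling, and 1564, 710 and 6607 lower. Under hybridization control scaling the changes of Psmb2 (-0.0206), Psmc3 (-0.0329), Psmd5 (-0.0148), Psmd6 (-0.0604), Psmd8 (-0.0453) and Psmd12 (-0.0607) turned negative, as did those of Psmb1 (-0.0396), Psmd13 (-0.150) and Psmg2 (-0.0915) with the mean of probe sets. For 20 pulses against control, 0 genes higher became 1 under quantile normalization and 2 under hybridization control scaling. Of all 13599 tested genes, 124 and 952 were called higher there. For Ca-free medium against 20 pulses, 28 higher became 3 under quantile normalization and 0 under hybridization control scaling. The count was 14 with Ca-free arrays 2 and 3 only and 18 with the mean of probe sets. The 0 lower became 21 under hybridization control scaling and 1 without the filter. Of all 13599 tested genes, 724 were higher under quantile normalization, and 38 higher and 9569 lower under hybridization control scaling. The cause of these shifts was not tested. Where arrays were left out, the fits also had fewer arrays.

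The other settings stayed within 1.5 times these counts, and Psma7 and Psmb7 were called higher in Ca-free medium under all 29 alternatives. With the replicate block, 18 genes were higher in Ca-free medium against control, all 18 among those called without it, and 27 against 20 pulses. Arrays of the same number correlated little across groups (mean r 0.02 against -0.01 for other numbers, range -0.06 to 0.10), although 7 of 12 correlated best with their own number, so the numbers were not taken as pairs. The difference in the ratio of Psmb10 to Psmb7 between Ca-free medium and control kept its sign under every alternative run. Rescaling an array changes little in a ratio within it. All Ca-free arrays lay below all control arrays, so leaving arrays out could not turn the sign. Under quantile normalization Psmb10 changed by 0.03 and Psmb7 by 0.28. Psmb8, Psmb9 and Psmb11 lay under the minimum signal, which limits what can be said of them.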
